A study of Mus musculus with 8 samples.

Results

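The comparison set 3 liver libraries against 3 colon libraries of the mouse groups that model nonalcoholic steatohepatitis (NASH, a fatty liver disease with inflammation): a NASH group and groups given a low (EVL) or a high (EVH) dose of extracellular vesicles from bovine colostrum. These 6 of the 8 libraries in the series were chosen by tissue and treatment label, and the other 2, liver and colon of the control (CON) group, showed which tissue differences narrowed or widened in the model. Levels are in FPKM, a read density scaled to transcript length and to the size of the library, in bulk total RNA, with 1 library per tissue and group. The labels used here give the tissue and the group of each library, but no strain, sex, age, diet, dose or route, and they do not say whether a library is 1 mouse or a pool, or whether liver and colon came from the same mice. The spread within a tissue below is therefore a spread over 3 different treatment groups with 1 library each, and it may also be technical.

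The liver makes most plasma proteins, turns ammonia into urea, degrades amino acids and foreign compounds, and makes bile acids from cholesterol. The colon is lined by absorptive colonocytes and mucus-secreting goblet cells that are renewed from dividing crypt cells, on a wall of smooth muscle and enteric neurons. Bile acids join the organs: hepatocytes secrete them, the gut returns most of them, and intestinal signals hold hepatic synthesis down. In steatohepatitis the liver takes up macrophages, lays down collagen, and hepatocytes lose part of their specialised programme while some cells divide.

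The defining markers matched the tissue labels in all 8 libraries. Albumin (Alb) was at 15530 FPKM or more in each liver library and at most 5.18 FPKM in colon, while the gut transcription factors Cdx2 and Hoxb13 were listed at 0 in all liver libraries and were at 33.4 FPKM or more in each colon library. Sequencing depth is not known, because the table holds no counts. The summed FPKM ranged from 780949 to 1020486 per library, and 5 small RNA genes took 49.7% to 54.9% of it. Protein-coding genes at 1 FPKM or more numbered 10735 to 11147 in the NASH-model liver libraries, 9448 in the control liver and 11998 to 12400 in colon. A pair of colon libraries stood apart. The colon NASH library held 16740 FPKM summed over 12 genes of male accessory glands, against 456 to 593.9 in the other colon libraries, where nearly all of it was the pancreatic and gut trypsin inhibitor Spink1. The colon EVH library held 4151 FPKM over 14 pancreatic acinar genes, against 84.5, 105.2 and 227.0 in colon NASH, EVL and CON. At 1 FPKM or more were 13 of the 14 genes in colon EVH and in control colon, but 1 each in colon NASH and EVL. The control colon, which enters each change from control given below, thus held pancreatic transcripts as well. In bulk tissue, fewer cells of a type and less RNA per cell cannot be told apart.

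Of the 21949 protein-coding genes in the table, 9540 reached 5 FPKM in at least 1 of the 6 libraries and were tested. The nearest genes below that minimum, 749 with a highest level from 4 to under 5 FPKM, were left out, and 676 genes just above it, from 5 to under 6 FPKM, were kept. The tissue difference of a gene is its mean log2(FPKM + 1) in the 3 liver libraries minus its mean in the 3 colon libraries, so a positive value means higher in liver, and the added 1 FPKM understates the difference of low genes. With limma, 4016 genes (42.1%) had a Benjamini-Hochberg adjusted p under 0.05 and at least a 2-fold difference. They were 1335 genes higher in liver (14%) and 2681 higher in colon (28.1%). The levels of the 3 liver libraries lay above all 3 colon libraries in 2330 genes (24.4%) and below them in 5314 (55.7%). The larger share for colon moved with the scaling of the libraries. The median gene lay at -0.46 as deposited and at -0.09 after median-of-ratios scaling, where 1721 genes were called higher in liver and 1841 in colon, so that liver took 48.3% of the calls in place of 33.2%. The widest differences leaned the other way: 245 genes were at least 32-fold higher in liver and 172 in colon. All 3 colon libraries were under 1 FPKM for 354 of the liver-high genes, and all 3 liver libraries were under 1 FPKM for 614 of the colon-high genes.

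Promoter sequence is shown here for the genes at the liver end of the comparison, because hepatocyte genes are known to carry sites for the factor HNF1. RefSeq promoters (GRCm38.p6) were found for 7697 tested genes, and the 250 bases before each start were searched on both strands for the letters GTTAATNAT (HNF1), CAAAGTCCA (HNF4), CAATAAA (CDX) and for the CArG box of smooth muscle genes. None of these patterns contains another. The HNF1 letters were present in 8 of the 100 genes with the largest difference toward liver, in 3 of the 100 with the largest difference toward colon and in 52 of all 7697 (0.676%). The HNF4 letters were present in 3, in 1 and in 37 (0.481%), the CDX letters in 7, in 4 and in 214 (2.78%), and the CArG box in 1, in 3 and in 99 (1.29%). The first liver genes of the naming rule that held any of the 4 motifs were Alb and hemopexin (Hpx), and none of the 12 leading colon genes with an entry did. Their 250 bases are given 5′ to 3′ on the strand of the gene, with the HNF1 match of Alb (chr5:90460620-90460869, plus strand, match starting 32 bases before the start) and the CArG match of Hpx (chr7:105600117-105600366, minus strand, match starting 104 bases before the start) in capitals.
Alb: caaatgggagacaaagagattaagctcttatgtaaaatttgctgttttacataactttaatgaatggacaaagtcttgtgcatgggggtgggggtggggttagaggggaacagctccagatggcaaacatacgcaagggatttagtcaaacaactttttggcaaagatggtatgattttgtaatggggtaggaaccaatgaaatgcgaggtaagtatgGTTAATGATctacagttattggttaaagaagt
Hpx: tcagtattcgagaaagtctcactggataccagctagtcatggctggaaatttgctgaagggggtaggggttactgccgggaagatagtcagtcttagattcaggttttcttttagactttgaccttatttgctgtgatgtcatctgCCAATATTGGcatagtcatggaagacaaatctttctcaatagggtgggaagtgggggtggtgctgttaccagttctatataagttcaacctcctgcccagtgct

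The HNF1 matches of the other genes in the sets of 100, chosen after the matches were seen, are printed with 10 bases on each side so that the letters around the match can be compared between liver and colon genes. Capitals mark the match, which reads in the direction of the gene or as its reverse complement. The liver genes encode the vitamin D binding protein (Gc), the protease inhibitor pregnancy zone protein (Pzp), fibrinogen alpha (Fga), a bile acid and organic anion carrier (Slco1b2), a complement factor H relative (Cfhr2), complement C5 (Hc) and ceruloplasmin (Cp). The colon genes encode the chloride-bicarbonate exchanger of colonocytes (Slc26a3), a brush border cadherin (Cdhr2) and a secreted lectin (Reg4).
Gc: cagtgacaaaGTTAATGATtaaaacctcc
Pzp: agtcctgtgtATTATTAACcgtgagctag
Fga: gccaagggtgATGATTAACctcctgccgg
Slco1b2: tgaagagataGTTAATCATcactgaactg
Cfhr2: taaatgtaaaATGATTAACttattattgt
Hc: tctgacattaATAATTAACcggagaacta
Cp: ttttctaaaaATCATTAACaatgacatat
Slc26a3: gttaatgaaaGTTAATTATtaaagttgac
Cdhr2: tctctgcatgGTTAATGATtgctcagaag
Reg4: tatagataagGTTAATTATtggtaaacac
Counted in bases before the start, the liver matches began at 52 in Gc, 202 in Pzp, 46 in Fga, 66 in Slco1b2, 110 in Cfhr2, 77 in Hc and 197 in Cp. The colon matches began at 84 in Slc26a3, 54 in Cdhr2 and 94 in Reg4. In these genes the same letters therefore stood before genes of either tissue, at tissue differences from 10.85 for Gc to -8.20 for Slc26a3. A match describes letters only and shows no bound factor.

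Genes of hepatocyte function were called higher in liver almost throughout. All 26 tested genes of secreted hepatocyte proteins were called, with a median difference of 8.99 against -0.46 over all genes. Albumin, the main plasma protein, stood at 15730, 15740 and 15530 FPKM in the liver NASH, EVL and EVH libraries and at 4.60, 2.90 and 5.18 FPKM in the matching colon libraries. The groups were far apart and the liver values lay within about 2% of each other (SD 123 FPKM, n = 3), which gave a tissue difference of 11.58 ± 0.17 (SE; limma, Benjamini-Hochberg adjusted p = 2.66e-09). Hemopexin, which binds free heme, stood at 5273, 5547 and 6107 FPKM in liver and at 1.02, 0.763 and 1.13 FPKM in colon, a difference of 11.49 ± 0.11. Apoa2, an apolipoprotein of high-density lipoprotein, stood at 3808, 4530 and 5320 FPKM in liver and at 1.29, 1.38 and 1.95 FPKM in colon, a difference of 10.80 ± 0.16. For these secreted proteins the order of the libraries within a tissue was small beside the gap between tissues. Mup20, the major urinary protein also called darcin, was highest of all genes in its difference, 11.64 ± 0.36, with 3415, 5930 and 8690 FPKM in liver and 0.493, 0.407 and 1.57 FPKM in colon.

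The enzymes of hepatic metabolism followed the same order. Of 28 P450 genes tested, 27 were called higher in liver, with a median of 4.57. Cyp3a11, a broad drug-metabolising P450, stood at 1598, 1835 and 2403 FPKM in liver and at 0.353, 0.333 and 0.176 FPKM in colon (10.54 ± 0.16). The exception was Cyp4f14, a fatty acid and leukotriene hydroxylase, called higher in colon. Of 30 genes of the urea cycle and amino acid catabolism, 29 were called higher in liver (median 5.44), among them Cps1, the entry enzyme of the urea cycle, at 659.7, 756.7 and 781.3 FPKM in liver and at most 1.16 FPKM in the NASH-model colon libraries. The exception, glutamine synthetase (Glul), was singled out after its values were seen. All 19 genes of hepatic bile acid synthesis and transport (median 5.44) and all 36 complement and coagulation factors (median 6.48) were called higher in liver, as were 20 of 22 genes of lipoprotein assembly and 24 of 28 acute phase genes. Serum amyloid A1 (Saa1), noted after its values were seen, was the acute phase gene called higher in colon.

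The transcription factors named for the hepatocyte did not divide the tissues in this way. Of 18 tested, 9 were called higher in liver, 1 higher in colon and 8 were not called, with a median of 0.99. Hnf4a, the nuclear receptor that marks hepatocytes and is also made in gut epithelium, stood at 69.1, 50.6 and 48.4 FPKM in liver and at 102.5, 76.1 and 94.5 FPKM in colon, a difference of -0.70 that was under 2-fold. The bile acid receptor Nr1h4 (FXR) stood at 52.4, 63.3 and 66.8 FPKM in liver and at 49.5, 41.4 and 32.6 FPKM in colon, also within 2-fold. Nr1i3 (CAR), the xenobiotic receptor, was called higher in liver, with 55.9, 62.4 and 62.8 FPKM there and 1.44, 2.82 and 2.38 FPKM in colon. The factor called higher in colon was Foxa1, singled out after its values were seen.

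Colon genes were led by the products of goblet cells. All 24 goblet and mucus genes tested were called higher in colon, with a median of -8.35. Muc2, the gel-forming mucin of colonic mucus, stood at 1760, 1097 and 1854 FPKM in the colon NASH, EVL and EVH libraries and at 0.0215 FPKM or less in the liver ones, a difference of -10.56 ± 0.20 (limma, Benjamini-Hochberg adjusted p = 5.43e-09). Zg16, a lectin of the mucus that binds bacteria, stood at 1668, 4287 and 3314 FPKM in colon and was listed at 0, 0.139 and 0 FPKM in liver. Several goblet and crypt products were lowest in colon NASH, with no liver signal against which to form a ratio. Mptx1, a mucosal pentraxin and the gene with the most negative difference, stood at 805.9, 7702 and 6769 FPKM in colon NASH, EVL and EVH. Clca1, which helps unfold the mucus, stood at 647.8, 3022 and 2807 FPKM in the same order, and Ang4, an antimicrobial ribonuclease, at 183.7, 1753 and 1154 FPKM. All 3 were listed at 0 in each liver library, and all 3 were called higher in colon in spite of this range.

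Colonocyte genes were called higher in colon in 30 of 31 cases (median -4.74), and intestinal transcription factors in 17 of 18 (median -4.17). Lypd8, which keeps flagellated bacteria off the epithelium, stood at 1759, 2376 and 1975 FPKM in colon and was listed at 0 in liver. Guca2a (guanylin), which controls salt and water secretion, stood at 1392, 2409 and 1713 FPKM in colon and at most 0.231 FPKM in liver (-10.62 ± 0.20). Hoxb13, a hindgut patterning factor, stood at 114.4, 139.5 and 131.4 FPKM in colon and Cdx2, the master factor of intestinal identity, at 50.7, 44.9 and 51.4 FPKM. Of 28 genes of epithelial junctions and keratins, 21 were called higher in colon and 1, the claudin Cldn1, higher in liver, at 16.7, 17.4 and 15.3 FPKM against 0.749, 0.354 and 0.601 FPKM. The wall of the colon was present as well: 20 of 22 smooth muscle genes and 7 of 8 genes of enteric neurons and glia were called higher in colon. Myh11, smooth muscle myosin, stood at 178.9, 166.3 and 187.1 FPKM in colon and at 0.589, 0.346 and 0.295 FPKM in liver. The neuropeptide gene Vip stood at 24.6, 24.7 and 29.4 FPKM in colon and was listed at 0 in liver. The neuronal list's exception was the GDNF receptor Gfra1, at 35.5, 32.8 and 34.0 FPKM in liver and 2.27, 1.61 and 1.84 FPKM in colon. The plasma cell gene Jchain, which joins secreted IgA, stood at 167.7, 418.3 and 303.0 FPKM in colon and at most 0.637 FPKM in liver, one of 5 B and plasma cell genes of 7 called higher in colon.

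**Figure D1:**
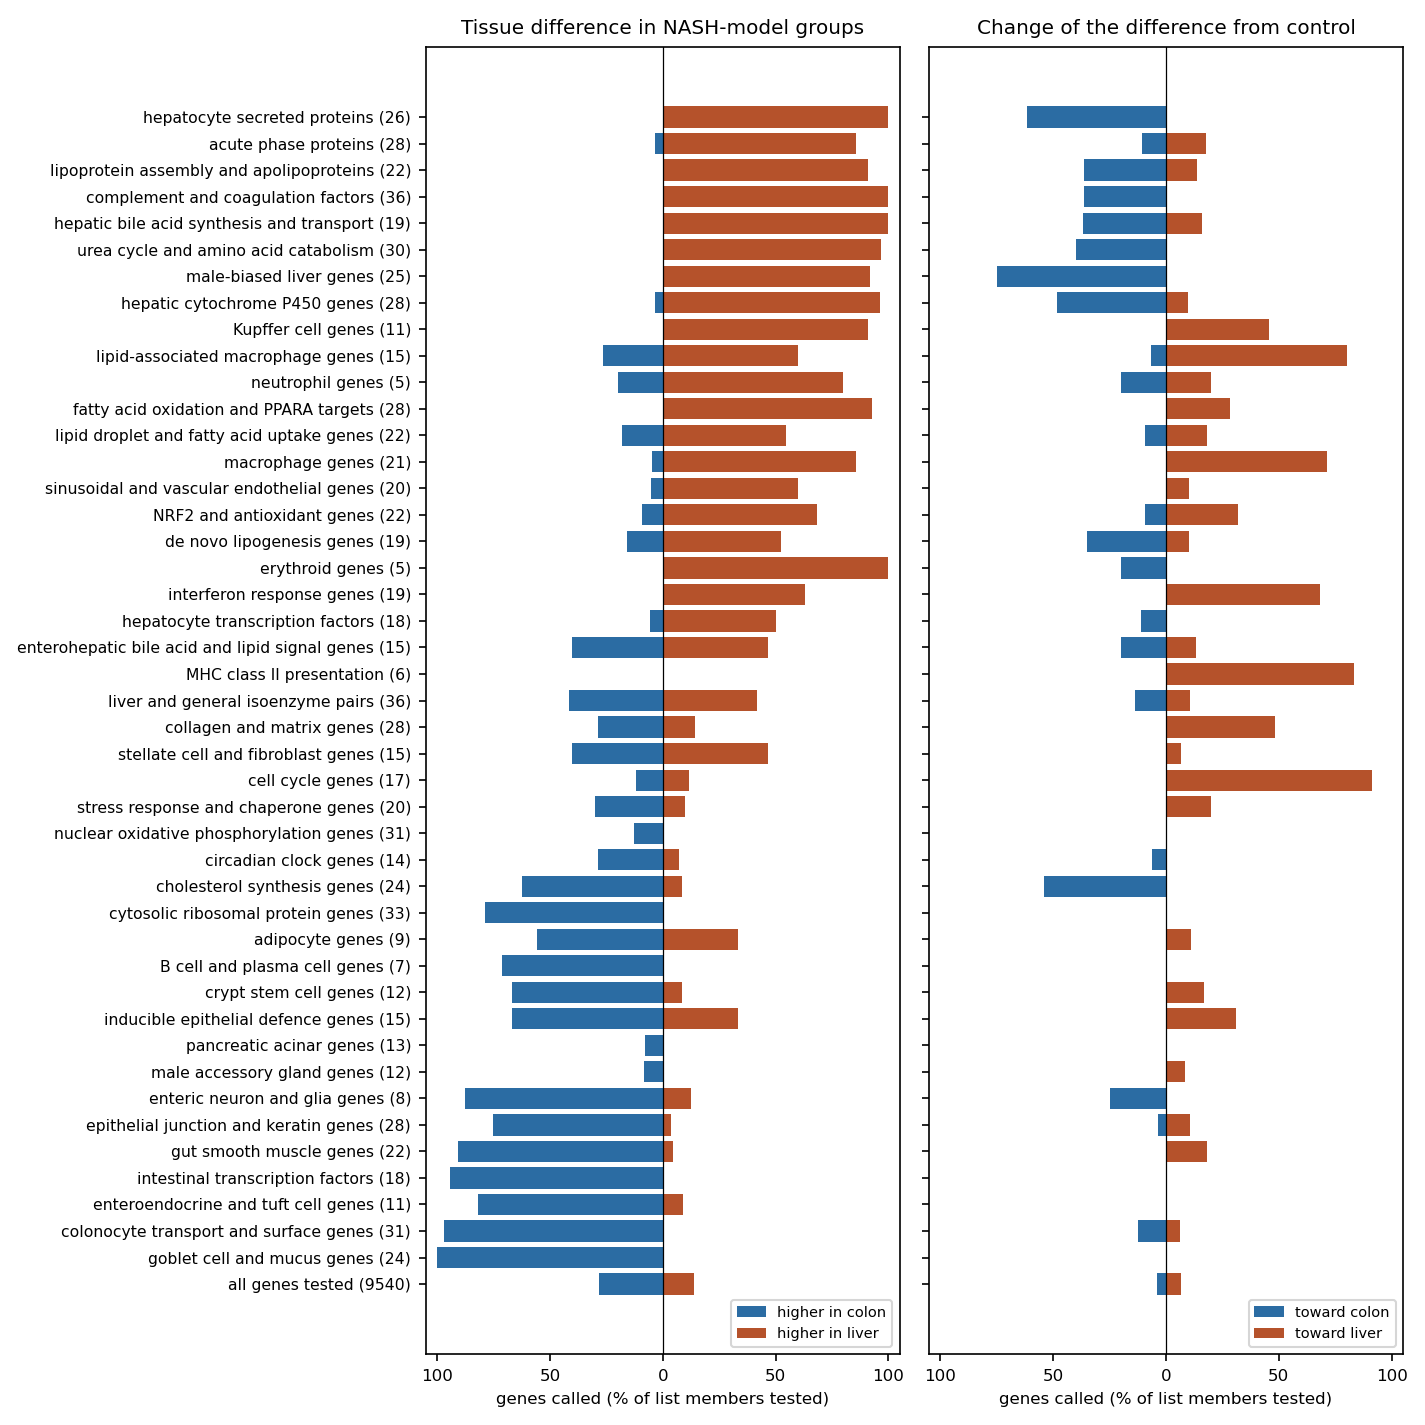
Share of each gene list called higher in liver (right) or colon (left) in the NASH-model groups, and share whose tissue difference changed from control, in percent of members tested by limma. The number of members tested for the tissue difference stands beside each name, lists with fewer than 5 are not drawn, and the bottom bar gives all genes (14% and 28.1% on the left, 6.58% and 4.18% on the right).

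Macrophage, Kupffer cell and interferon genes were mostly higher in liver in the model, unlike the B and plasma cell genes above. Of 21 macrophage genes, 18 were called higher in liver (median 1.78). Csf1r, the receptor for the macrophage growth factor, stood at 56.2, 50.2 and 50.01 FPKM in liver and at 6.92, 8.80 and 8.36 FPKM in colon. Of 11 Kupffer cell genes, 10 were called higher in liver (median 3.09), among them Clec4f, a lectin of resident liver macrophages, at 102.5, 105.9 and 112.5 FPKM in liver and listed at 0 in all colon libraries. Interferon response genes were called higher in liver in 12 of 19 cases, and vascular and sinusoidal endothelial genes in 12 of 20. Genes of lipid-associated macrophages were divided, with 9 of 15 higher in liver and 4 higher in colon. The 4 were Lgals3 and Cd63, which colon epithelium also expresses, and Cd9 and Fabp4, which were noted after their values were seen. None of the 6 genes of MHC class II presentation was called in either direction (median 0.07). No T or NK cell gene reached the minimum level.

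Housekeeping lists gave smaller differences. Cytosolic ribosomal protein genes were called higher in colon in 26 of 33 cases (median -1.23), but in 7 after median-of-ratios scaling, and in none higher in liver under either scaling. Nuclear oxidative phosphorylation genes were called higher in colon in 4 of 31 cases, and after that scaling in 1, with 2 then higher in liver. Without colon NASH the colon count was 8. The 5 erythroid genes were all called higher in liver, at differences from 1.04 to 2.98, but only 1 of them was called without the colon EVH library, whose globin levels were the lowest of the colon libraries.

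The same difference in the control pair of libraries showed how much of this tissue order the model kept. Of the 4016 genes called between the tissues in the NASH-model groups, 3453 (86.0%) were at least 2-fold apart the same way in control. There, 534 (13.3%) were within 2-fold and 29 (0.304% of the genes tested) were at least 2-fold apart the opposite way. The change of a gene is its tissue difference in the NASH-model groups minus that in control, taken relative to the median gene, whose difference moved by 0.39 toward liver as deposited. That median movement was 0.43 in liver and 0.04 in colon. With limma on all 8 libraries, in which the lone control library of each tissue was assumed to vary like the others, 1040 of 9659 genes (10.8%) changed at a Benjamini-Hochberg adjusted p under 0.05 and 2-fold. They were 636 toward liver (6.58%) and 404 toward colon (4.18%). Of the 9659 genes, 119 reached 5 FPKM in a control library only, so that a lower level in the model was part of how they were kept, and 38 of them were called toward liver and 28 toward colon. Without the centring on the median gene the calls were 1271 toward liver and 212 toward colon, a share of 85.7% toward liver in place of 61.2%. Leaving out the liver EVL library gave 424 toward liver and 255 toward colon, and leaving out both colon libraries that stood apart gave 202 and 165. Unadjusted p-values under 0.05 numbered 2593.

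Most changes were a narrowing of the control difference. For these classes the control difference was shifted by the median change of 0.39, and crossing needed at least 2-fold on each side. On that basis the difference shrank in 677 of the 1040 genes (65.1%), widened in 344 (33.1%) and crossed to the other tissue in 19 (1.83%). A turn of order that was under 2-fold on either side was counted as narrowed or widened. Of the narrowed genes, 385 moved toward liver and 292 toward colon. The change was larger in liver than in colon in 914 of the 1040 genes (87.9%). Each was taken against its own control and relative to the median gene of that tissue. Of the 385 genes whose colon excess narrowed, 194 were not called between the tissues in the model. Of the 292 whose liver excess narrowed, 60 were not called. The control pair, with 1 library per tissue, carries no such calls. The control libraries enter both quantities, so the control difference and the change of a gene are not independent of each other. Without colon NASH and EVH the model has 1 colon library, and the list counts below are also given for that fit, which has fewer samples.

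**Figure D2:**
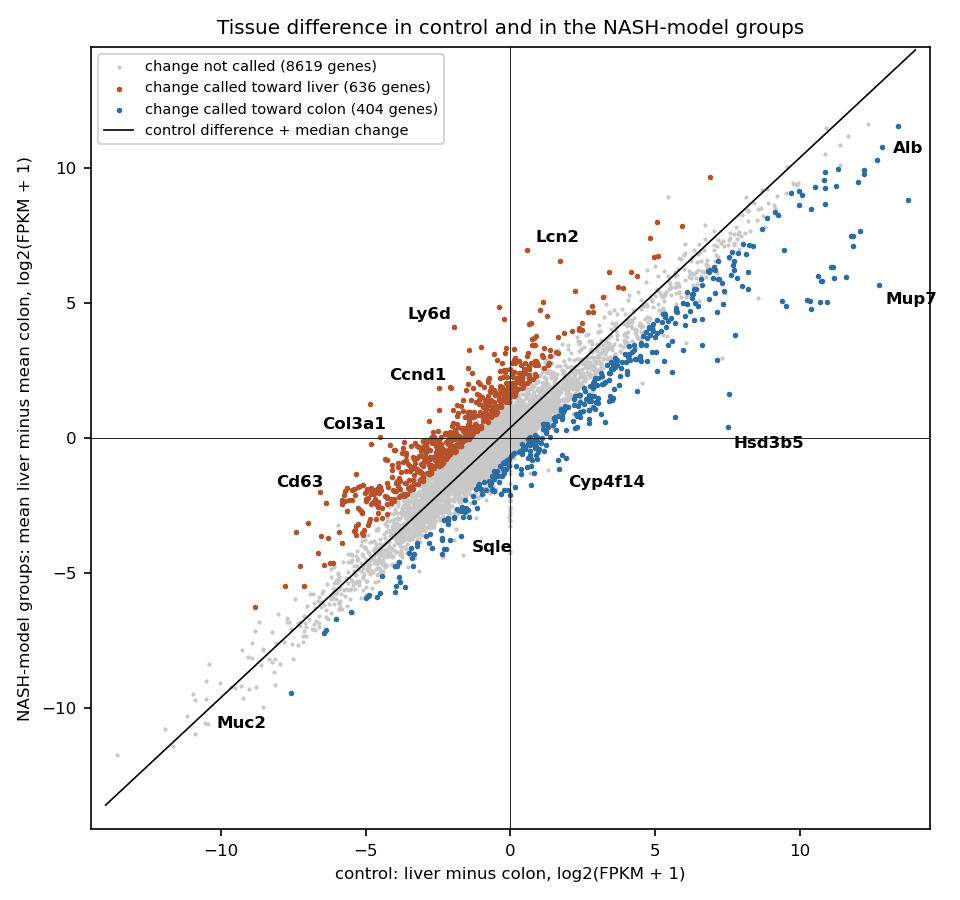
Tissue difference in the control libraries (x axis) against that in the NASH-model groups (y axis), both liver minus colon in log2(FPKM + 1), 1 point per gene for 9659 genes. Genes called toward liver (636) lie above the line of the control difference plus the median change of 0.39, mostly where colon was higher in control, and genes called toward colon (404) lie below it, mostly where liver was higher.

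The liver excess narrowed for many secreted hepatocyte products, but not for the acute phase genes as a list. Of 28 acute phase genes, 5 moved toward liver and 3 toward colon (median change 0.07), against 6.58% and 4.18% over all genes. Among 22 genes of lipoprotein assembly, 3 moved toward liver and 8 toward colon (median change -0.69). Of 26 genes of secreted proteins, 16 moved toward colon and none toward liver (median change -1.40, against 0 over all genes by construction), or 7 without colon NASH and EVH. Serpina1e, an antitrypsin gene, stood at 3965 FPKM in control liver and at 189.0, 221.7 and 277.4 FPKM in NASH, EVL and EVH, with colon at 0.284 FPKM or less. All 3 NASH-model liver libraries were below control by more than 10-fold, and the change was -4.74 ± 0.29 (limma, Benjamini-Hochberg adjusted p = 0.000652). Its near-identical relatives can share fragments, so the values of single Serpina1 genes are uncertain. Apoa1, the main protein of high-density lipoprotein, stood at 5546 FPKM in control liver and at 3322, 3468 and 3695 FPKM in the model, and at 0.158 FPKM in control colon and 2.70, 2.33 and 4.13 FPKM in the model colon. Its change of -2.84 ± 0.33 (adjusted p = 0.00296 with limma) thus held a lower liver level and a higher colon trace. Albumin likewise changed by -2.23 ± 0.34, from 19470 FPKM to the model liver levels given above and from 0.782 FPKM in control colon to 2.90 to 5.18 FPKM. For Apoa1 and albumin, the colon rise was larger in log2(FPKM + 1) than the liver fall, at colon levels of at most 5.18 FPKM.

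Low colon levels of liver transcripts moved with this narrowing over the whole list. For the 25 or 26 secreted proteins at 100 FPKM or more in liver, the median colon level was 0.00387% of the liver level in control, and 0.0484%, 0.0427% and 0.0478% in NASH, EVL and EVH. In FPKM these medians were 0.094 against 0.507, 0.616 and 0.683. Over the list, the median change relative to the median gene of each tissue was -1.21 in liver and 0.25 in colon. Liver RNA in the colon libraries and expression in colon cells cannot be told apart in these values, and the part of the colon traces in the changes was not tested. For Serpina1e the liver change alone held nearly all of the difference.

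The male-biased genes of mouse liver, most of them driven by pulsed growth hormone, also lost liver excess. Of the 25 members kept through a NASH-model library, 18 moved toward colon and none toward liver. A further 3, Hsd3b5, Elovl3 and Cyp4a12b, were kept through the control liver alone and were also called, which their selection made likely. Of all 28, 3 were called without colon NASH and EVH. Hsd3b5, a steroid-reducing enzyme, stood at 182.4 FPKM in control liver and at 0.160, 0.124 and 0.816 FPKM in the model and was listed at 0 in every colon library. Elovl3, a fatty acid elongase, stood at 187.9 FPKM in control liver and at 1.44, 2.14 and 3.69 FPKM in the model, with colon at 0.209 FPKM or less. These 2 are given as levels only, since no model library reached the minimum. Mup7 stood at 6924 FPKM in control liver and at 20.4, 51.7 and 113.4 FPKM in the model. The major urinary protein genes are near-identical copies, so levels of single members are uncertain, and 9 other members with the pattern of Mup7 made up the rest of the 12 changes furthest toward colon. Mup20, the gene with the largest tissue difference, did not pass the test for a change (-1.11 ± 0.73).

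Among P450 genes, 15 of 31 moved toward colon and 3 toward liver, with 9 toward colon without liver EVL, 9 without colon NASH and 2 without colon NASH and EVH. Cyp2c29, an arachidonic acid and drug hydroxylase, stood at 665.5 FPKM in control liver and at 29.9, 29.6 and 40.8 FPKM in the model, a change of -4.70 ± 0.28. Of the 31 genes, 3 were kept through a control library only, 2 of them among those called toward colon. Cyp2a5, a coumarin hydroxylase that moved toward liver, stood at 119.6 FPKM in control liver and 746.4, 1024 and 1062 FPKM in the model, with colon at most 0.208 FPKM (change 2.36 ± 0.30). Cyp2a4, its near copy, stood at 2.28 FPKM in control liver and at 104.0, 120.5 and 71.2 FPKM in the model. Cyp4a14, a fatty acid hydroxylase, and Cyp2c38, singled out after its values were seen, also moved toward liver.

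Urea cycle and amino acid genes moved toward colon in 12 of 30 cases, complement and coagulation genes in 13 of 36, and none of either moved toward liver. Without colon NASH and EVH these counts were 2 and 3. Agxt, which detoxifies glyoxylate, stood at 226.1 FPKM in control liver and at 56.9, 63.2 and 68.3 FPKM in the model (change -2.29 ± 0.23). Haao, of the kynurenine pathway from tryptophan, stood at 182.6 FPKM in control liver and at 52.4, 62.7 and 73.9 FPKM in the model (change -2.11 ± 0.32). Serpinf2, the inhibitor of plasmin, stood at 289.3 FPKM in control liver and at 152.0, 150.8 and 154.0 FPKM in the model, with its colon level at 0.0256 FPKM in control and between 0.162 and 0.464 FPKM in the model (change -1.7 ± 0.23). All of these remained called higher in liver: the narrowing left differences of 5.93 for Agxt, 5.36 for Haao and 6.84 for Serpinf2.

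Cholesterol synthesis became a colon-side list. In control, 4 of 24 genes were at least 2-fold higher in liver and 4 in colon, against 10.7% and 45.4% over all genes. In the model 15 were called higher in colon and 2 in liver, against 28.1% and 14% over all genes. After median-of-ratios scaling these model calls were 8 and 3, and the control count was not rescaled. The control count is of 1 pair of libraries and the model count of limma calls. By the change itself 13 genes moved toward colon and none toward liver (median -1.30), with 7 toward colon without liver EVL and 5 without colon NASH and EVH. Fdps, which makes farnesyl diphosphate, stood at 113.3 FPKM in control liver and at 17.5, 16.9 and 17.5 FPKM in the model, and at 69.0 FPKM in control colon and 41.8, 76.3 and 67.0 FPKM in the model. The order of the tissues turned, and the change was -2.84 ± 0.42 (limma, Benjamini-Hochberg adjusted p = 0.00647). Sqle, the squalene epoxidase, stood at 8.25 FPKM in control liver and at 1.32, 1.13 and 1.16 FPKM in the model, against 21.5 to 31.5 FPKM over all 4 colon libraries (change -2.29 ± 0.29). Idi1, the isopentenyl diphosphate isomerase, stood at 18.4 FPKM in control liver and 18.7 FPKM in control colon, and in the model at 2.32, 3.01 and 3.06 FPKM in liver and 12.9, 15.8 and 18.3 FPKM in colon. A level shared by the tissues in control was thus 2 units apart on the log2 scale in the model (-2.13 ± 0.15, change -2.50 ± 0.30). Tm7sf2, a sterol reductase, stood at 53.9 FPKM in control liver and 4.19, 4.48 and 6.16 FPKM in the model, and at 13.4 FPKM in control colon and 7.81, 10.1 and 8.92 FPKM in the model. Of fatty acid synthesis genes, 7 of 20 (1 of them, Acacb, kept through a control library only) moved toward colon and 2 toward liver, with 4 toward colon without liver EVL, 4 without colon NASH and 2 without colon NASH and EVH. Acss2, which activates acetate, stood at 57.9 FPKM in control liver and at 13.3, 15.5 and 16.5 FPKM in the model, against 28.5 to 38.6 FPKM in colon (change -2.03 ± 0.26).

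**Figure D3:**
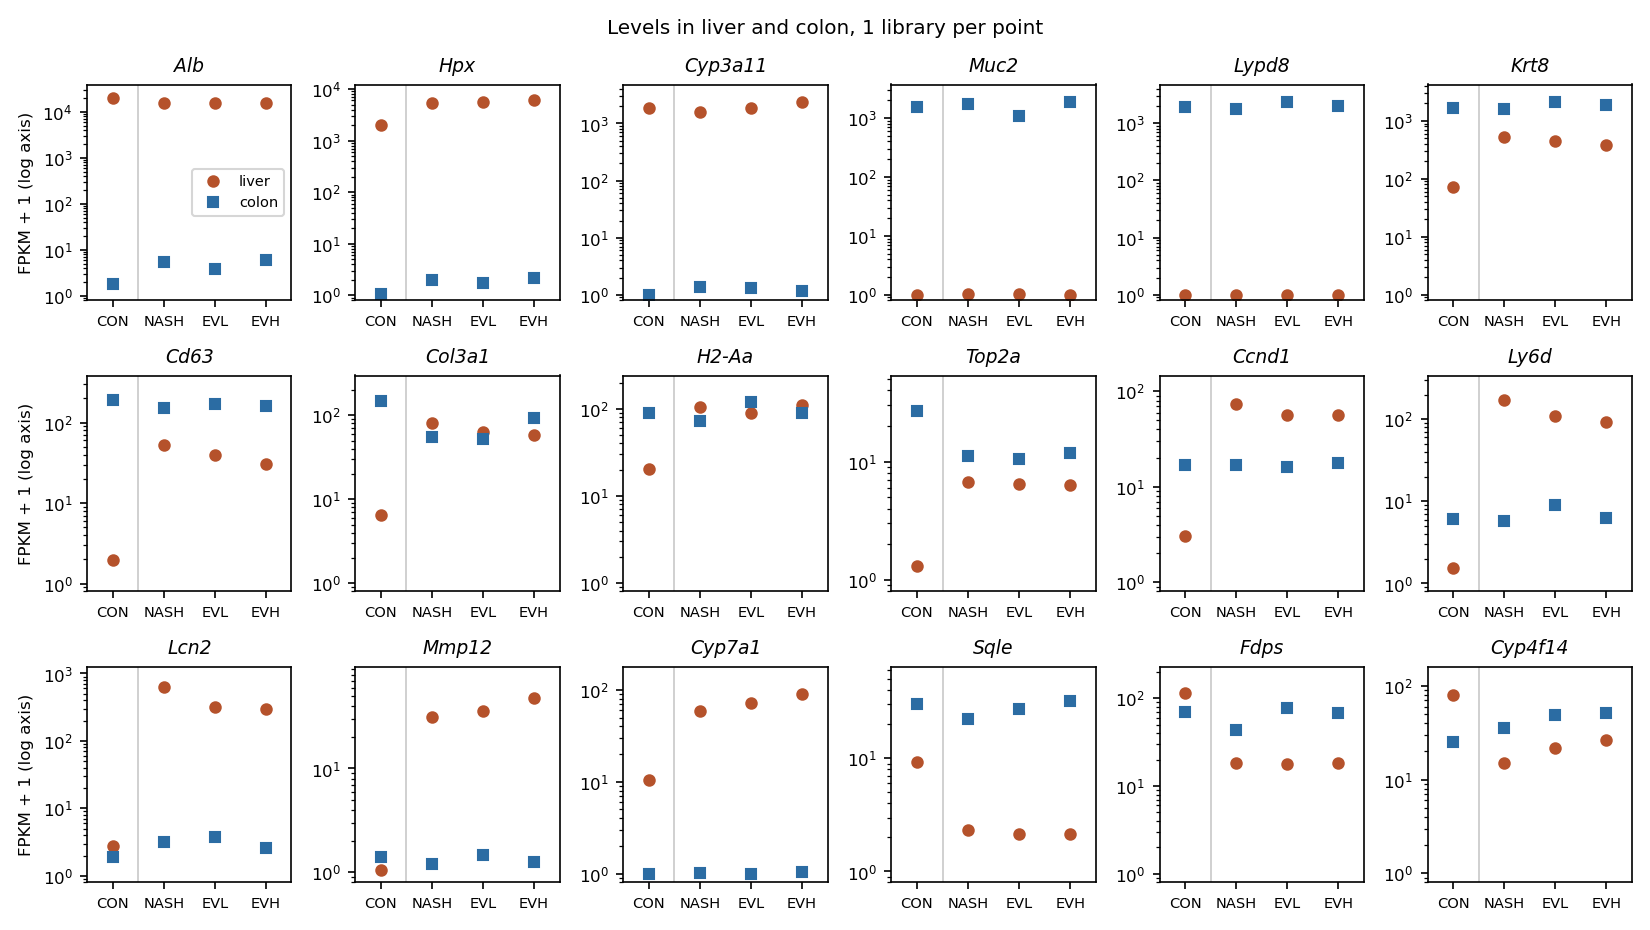
Deposited levels of 18 genes in the 4 liver (circles) and 4 colon (squares) libraries, as FPKM + 1 on a log axis, with control left of the grey line and 1 library per point. Alb, Hpx, Cyp3a11, Muc2 and Lypd8 keep their tissue order, Krt8, Cd63, Col3a1, H2-Aa and Top2a approach each other, Ccnd1, Ly6d, Fdps and Cyp4f14 change order, and Lcn2, Mmp12, Cyp7a1 and Sqle move apart.

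The colon excess narrowed for genes of dividing cells. In control, 45.4% of all 9659 genes were at least 2-fold higher in colon. Of the 17 cell cycle genes kept through a NASH-model library, 15 moved toward liver and none toward colon. A further 6 reached 5 FPKM in a control library only and all moved toward liver. Their selection made this move, and their colon excess in control, likely. All 23 were at least 2-fold higher in colon in control, and without colon NASH and EVH 13 of the 23 moved toward liver. Top2a, a topoisomerase of dividing cells, stood at 0.308 FPKM in control liver and at 5.76, 5.43 and 5.28 FPKM in the model, and at 25.7 FPKM in control colon and 10.2, 9.54 and 10.9 FPKM in the model. Both tissues thus moved toward each other, the difference left in the model was under 2-fold (-0.79 ± 0.10), and the change was 3.17 ± 0.19 (limma, Benjamini-Hochberg adjusted p = 0.000614). Birc5 (survivin) stood at 0.173 FPKM in control liver and 3.42, 4.13 and 4.48 FPKM in the model, and at 17.6 FPKM in control colon and 5.95, 5.37 and 5.99 FPKM in the model (change 3.16 ± 0.23). Ccnd1 (cyclin D1) went further, to an excess in liver: it stood at 2.01 FPKM in control liver and 72.4, 56.1 and 55.2 FPKM in the model, with colon between 15.1 and 16.8 FPKM in all 4 libraries. Its change was 3.96 ± 0.26. Of the 17 cell cycle genes tested between the tissues in the model, 13 were not called (57.9% over all genes), 2 were called higher in liver and 2 in colon. The 2 higher in colon were Ccna2 (cyclin A2, -1.17) and the proliferation marker Mki67 (-1.07). Neither was called after median-of-ratios scaling, and Mki67 was not called without liver EVH or without colon NASH. Rrm2, a subunit of ribonucleotide reductase, joined Ccnd1 on the liver side, at 6.32, 6.86 and 5.91 FPKM against 2.61, 2.74 and 2.59 FPKM, though its difference of 1.01 passed 2-fold barely and was not called without liver EVL.

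Collagen and matrix genes narrowed in the same direction. Of 29 kept, 24 were at least 2-fold higher in colon in control (45.4% over all genes), and 14 moved toward liver and none toward colon (median 1.36). After median-of-ratios scaling, 20 moved toward liver, and without colon NASH and EVH 2 did. In the model 8 of 28 were called higher in colon (28.1% over all genes), 4 higher in liver (14% over all genes) and 16 neither. Col3a1, a fibrillar collagen, stood at 5.57 FPKM in control liver and at 79.5, 61.8 and 58.0 FPKM in the model, and at 147.9 FPKM in control colon and 54.8, 51.2 and 92.2 FPKM in the model. The libraries of the tissues overlapped in the model (0.05 ± 0.24), and the change was 4.16 ± 0.47 (limma, Benjamini-Hochberg adjusted p = 0.00261). Col1a2 stood at 1.82 FPKM in control liver and 21.9, 15.1 and 12.98 FPKM in the model, against 37.2 FPKM in control colon and 25.1, 19.1 and 30.4 FPKM in the model (change 2.81 ± 0.45). Postn (periostin) narrowed but stayed a colon gene, at 2.78 FPKM in control liver, 12.2, 15.1 and 12.7 FPKM in the model liver and 78.5 to 90.1 FPKM over the 4 colon libraries. The median change of the list was 1.14 in liver and -0.43 in colon, each relative to the median gene of that tissue. Stellate cell and fibroblast genes, a list that marks the collagen-making cells, changed in 1 of 15 cases (Hgf, not called without any one of liver EVL, liver EVH, colon NASH or colon EVL). Actin Acta2, a mark of activated stellate cells and of gut muscle, stood at 0.354 FPKM in control liver, 4.16, 2.10 and 1.69 FPKM in the model and 294.2 FPKM or more in colon, and its change of 1.13 ± 0.47 did not pass the test.

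MHC class II genes came level, and some genes of epithelium and the cytoskeleton narrowed a colon excess that most of them kept. Over all genes, 45.4% were at least 2-fold higher in colon in control. The 6 MHC class II genes were all at least 2-fold higher in colon in control, and 5 moved toward liver, with 3 doing so without liver EVL, 2 without colon EVH and 1 without colon NASH and EVH. H2-Eb1 stood at 7.12 FPKM in control liver and 48.6, 36.6 and 39.7 FPKM in the model, against 42.3 FPKM in control colon and 32.9, 50.4 and 40.7 FPKM in the model, so that the libraries overlapped (0.02 ± 0.18, change 2.04 ± 0.35). Krt8, a keratin of simple epithelia, stood at 70.2 FPKM in control liver and 527.0, 451.1 and 385.0 FPKM in the model, against 1579 to 2117 FPKM in colon (change 2.12 ± 0.32). Krt23 stood at 0.549 FPKM in control liver and at 10.1, 12.1 and 10.3 FPKM in the model, above the 4.16 to 6.15 FPKM of all 4 colon libraries, where in control it had been below them (change 2.33 ± 0.30). Cd63, a protein of lysosomes and extracellular vesicles, stood at 0.987 FPKM in control liver and at 52.2, 39.0 and 29.6 FPKM in the model, against 191.6 FPKM in control colon and 150.8, 169.5 and 160.9 FPKM in the model. The tissue difference went from -6.60 in control to -2.003 (change 4.20 ± 0.39, limma, Benjamini-Hochberg adjusted p = 0.00147). Lgals3 (galectin 3) stood at 2.48 FPKM in control liver and at 68.2, 51.2 and 48.1 FPKM in the model, against 520.2 FPKM or more in each colon library (change 3.54 ± 0.39). Of 22 smooth muscle genes, 4 moved toward liver: Tpm1, Flna, Tagln and Ckb, the last not without colon EVH. The list gave 1 such gene without colon NASH and EVH. Of these, tropomyosin 1 (Tpm1) stood at 7.25 FPKM in control liver and 41.4, 36.3 and 36.1 FPKM in the model, while the muscle-restricted Actg2, Cnn1, Des and Myh11 stayed at 1.71 FPKM or less in each liver library. Ifi27l2b, an interferon-induced gene, stood at 1.46 FPKM in control liver and at 62.6, 61.7 and 57.1 FPKM in the model, against 52.0 to 94.2 FPKM in colon (change 4.22 ± 0.40).

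Other changes toward liver widened a liver excess or made one where control had none. Lcn2 (lipocalin 2), which starves bacteria of iron, showed the largest change toward liver. It stood at 1.80 FPKM in control liver and 633.0, 322.3 and 296.2 FPKM in the model, and at 0.876 FPKM in control colon and 2.16, 2.73 and 1.62 FPKM in the model (tissue difference 6.97 ± 0.29, change 6.004 ± 0.58, limma, Benjamini-Hochberg adjusted p = 0.00161). Its liver level was highest in NASH, and the liver and colon ranges did not overlap in the model. Mmp12, the elastase of macrophages, stood at 0.0526 FPKM in control liver and 30.1, 35.0 and 46.9 FPKM in the model, with colon under 0.5 FPKM throughout (change 4.87 ± 0.35). Clec7a (dectin 1), a macrophage receptor for fungal glucan, stood at 1.22 FPKM in control liver and 43.4, 50.1 and 61.2 FPKM in the model, against 1.17 to 2.12 FPKM in colon (change 4.24 ± 0.37).

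Macrophage genes moved toward liver as a list, 15 of 21 with none toward colon (median change 1.7), or 9 without colon EVH and 7 without colon NASH and EVH. In control 1 of these 21 genes was at least 2-fold higher in liver and 4 in colon, against 10.7% and 45.4% over all genes. Their summed level over 22 genes was 223.8 FPKM in control liver and 1147 to 1205 FPKM in the model, against 393.5 to 587.6 FPKM over the colon libraries. Adgre1 (F4/80), the common surface marker of mouse macrophages, stood at 6.94 FPKM in control liver and 32.9, 34.7 and 36.4 FPKM in the model, with colon between 3.13 and 5.99 FPKM (change 1.96 ± 0.37). Lyz2, the lysozyme of macrophages, was higher in colon in control, at 109.1 against 32.4 FPKM, and higher in liver in the model, at 242.8, 215.7 and 287.1 against 94.3, 136.7 and 98.2 FPKM (change 2.51 ± 0.35). Of 15 genes of lipid-associated macrophages, 12 moved toward liver, Gpnmb among them, and 1, Fabp5, noted after its values were seen, moved toward colon. Of 11 Kupffer cell genes, 5 moved toward liver. Without colon NASH and EVH, 7 and 2 genes of these lists moved toward liver. Cd5l stood at 32.2 FPKM in control liver and at 262.6, 275.9 and 262.2 FPKM in the model (change 2.55 ± 0.19), whereas Marco and Vsig4 were not called without 4 and 1 of the single libraries respectively. Of 19 interferon genes, 13 moved toward liver and none toward colon, or 3 without colon NASH and EVH. The chemokine Cxcl10 stood at 0.826 FPKM in control liver and at 7.80, 7.88 and 8.39 FPKM in the model, with colon under 0.66 FPKM. The adhesion gene Vcam1 stood at 2.05 FPKM in control liver and at 37.1, 38.5 and 36.3 FPKM in the model, against 3.25 to 4.73 FPKM in colon (change 2.98 ± 0.21).

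Fatty acid oxidation and PPARA targets widened their liver excess in 8 of 28 cases and narrowed it in none. The count was 4 without liver EVL, 4 without colon NASH, 3 without colon EVH and 0 without both. In control 13 of these genes were at least 2-fold higher in liver, and in the model 26 were called higher in liver. Over all genes these shares were 10.7% and 14%. The control count is of 1 pair of libraries as deposited and the model count of limma calls. The median gene itself moved by 0.39 toward liver between them. Acot2, a mitochondrial acyl-CoA thioesterase, stood at 1.86 FPKM in control liver and 29.5, 24.9 and 19.5 FPKM in the model, against 2.34 to 3.83 FPKM in colon (change 2.36 ± 0.34). Among NRF2 and antioxidant genes, 7 of 22 moved toward liver and 2, catalase (Cat) and Sod1, noted after their values were seen, toward colon. Without colon NASH and EVH, 4 moved toward liver, and without liver EVL 1 toward colon. Nqo1, a quinone reductase, stood at 2.75 FPKM in control liver and 17.7, 17.4 and 17.2 FPKM in the model, against 22.3 FPKM in control colon and 13.8, 20.5 and 17.7 FPKM in the model, so the tissues came level (0.02 ± 0.14, change 2.27 ± 0.29). Gstm3, a glutathione transferase, stood at 28.4 FPKM in control liver and 226.4, 192.5 and 181.4 FPKM in the model, while colon went from 13.5 FPKM in control to 4.76, 6.96 and 8.22 FPKM (change 3.32 ± 0.37).

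An order opposite to control was counted only where the deposited control difference was at least 2-fold the other way, so Fdps is not included. The shift by the median change, used for the crossed genes above, was not applied. Such a reversal was found in 29 genes, 27 of them higher in liver in the model and 2 in colon, Cyp4f14 and the carboxylesterase Ces2a. Ces2a was not called between the tissues without any one of liver NASH, liver EVL, colon EVL or colon EVH. The count depends on the low values: it was 66 with a pseudocount of 0.1 FPKM and 6 with one of 5 FPKM. It depends on the scaling as well, with 16 after median-of-ratios scaling and 11 where the order was taken relative to the median gene. D17H6S56E-5, a short gene of the MHC region, stood at 0.235 FPKM in control liver and 50.3, 44.4 and 41.5 FPKM in the model, and at 35.2 FPKM in control colon and 16.5, 18.2 and 20.7 FPKM in the model (change 5.74 ± 0.25, limma, Benjamini-Hochberg adjusted p = 0.00034). The ranges of the tissues did not overlap in the model, and liver was higher and colon lower than its control. Ly6d, a surface protein of early lymphoid and epithelial cells, stood at 0.558 FPKM in control liver and 169.7, 107.8 and 92.9 FPKM in the model, with colon between 4.79 and 7.96 FPKM. Ubd, a ubiquitin-like protein induced by inflammation, stood at 0.434 FPKM in control liver and 31.1, 35.0 and 32.2 FPKM in the model, with colon between 2.04 and 3.05 FPKM. Haus8, a subunit of the spindle complex augmin, stood at 1.02 FPKM in control liver and 26.0, 22.4 and 20.5 FPKM in the model, against 4.28 to 7.33 FPKM in colon. For all 3, colon moved little and the turn lay in liver. Gsta1 and its near copy Gm3776, glutathione transferases whose fragments can be shared, stood at 2.71 and 1.67 FPKM in control liver and at 82.5 FPKM or more and 73.2 FPKM or more in the model, against 13.8 to 21.7 and 10.1 to 17.8 FPKM in the model colon. Cidec, which fuses lipid droplets in steatotic hepatocytes and in fat cells, stood at 0.0793 FPKM in control liver and 55.1, 42.8 and 31.7 FPKM in the model. Its colon level moved with the fat cell genes of those libraries, at 3.61, 19.1, 10.6 and 5.56 FPKM in CON, NASH, EVL and EVH where adiponectin (Adipoq) stood at 5.31, 19.8, 9.63 and 3.16 FPKM, and its change of 3.61 was not called without liver EVL. The part of the fat cell genes in it was not tested. Cyp4f14 went the other way, from 79.5 FPKM in control liver to 14.2, 20.5 and 25.4 FPKM in the model and from 23.9 FPKM in control colon to 34.7, 48.0 and 50.7 FPKM (change -3.21 ± 0.46). Its remaining difference in the model, -1.13, was not called without liver NASH or after median-of-ratios scaling.

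Lists that define the colon differed in how many members changed. None of the 24 goblet genes, 18 intestinal transcription factors and 11 enteroendocrine and tuft cell genes was called for a change in either direction. Of 32 colonocyte genes, 2 moved toward liver and 4 toward colon. Of these 4, 1 was kept through a control library only, and the 31 genes kept through a NASH-model library gave 3. Of 22 smooth muscle genes 4 moved toward liver, and of 8 enteric neuron and glia genes 2 moved toward colon. The colonocyte genes toward liver were the water channel Aqp4 and the phosphate carrier Slc20a1, the latter not without any one of liver NASH, liver EVL, colon NASH or colon EVH. Muc2 changed by -0.38 ± 0.40 and Cdx2 by -0.93 ± 0.19, the latter under the 2-fold limit. For some goblet genes the spread among the model libraries was wide, as for Mptx1 (change 1.47 ± 1.57). Summed over 26 listed goblet genes, colon stood at 34130 FPKM in control and at 10090, 26710 and 23980 FPKM in NASH, EVL and EVH. The change was fitted on the mean of the model groups, and colon NASH alone against control was not tested. Without colon NASH and EVH, 3 enteroendocrine and tuft cell genes moved toward colon. Ly6g, listed here with neutrophils but seen at 23.6 FPKM in control colon and 68.8, 55.0 and 58.1 FPKM in the model and at 0.068 FPKM or less in liver, changed by -1.68 ± 0.23. Vip and the tachykinin gene Tac1, from 14.1 and 9.90 FPKM in control colon to at least 24.6 and 14.8 FPKM in the model, were called as deposited but not after median-of-ratios scaling, and Tac1 not without liver NASH or without colon EVL. Tef, a clock output factor, stood at 3.71 FPKM in control colon and 41.6, 39.4 and 42.2 FPKM in the model, and at 8.11 FPKM in control liver and 31.2, 27.1 and 27.2 FPKM (change -1.86 ± 0.20). For the 16 clock genes, median changes were 1.37 in colon and 0.06 in liver, each relative to the median gene of that tissue. As deposited, the levels summed over 19 listed genes rose in both tissues. They went from 86.2 FPKM in control liver to 195.4, 182.9 and 175.1 FPKM in NASH, EVL and EVH. In colon they went from 106.0 FPKM to 284.2, 262.9 and 285.6 FPKM. Tef was the gene called for a change. Without liver NASH 5 clock genes were called, without colon EVL 3, and 3 after median-of-ratios scaling. The time of tissue collection is not in the labels used here.

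The isoenzymes that liver and other tissues divide between them were described pair by pair. Of 36 genes tested, 15 were called higher in liver and 15 in colon. Hexokinase 2 (Hk2) was called higher in colon, at 18.8, 15.8 and 18.1 FPKM against 2.71, 1.94 and 1.64 FPKM in liver, where control had 0.254 FPKM. Its change of 1.46 ± 0.29 was not called without liver EVL. Muscle-type pyruvate kinase (Pkm) stood at 5.04 FPKM in control liver and 34.8, 28.5 and 29.0 FPKM in the model, and at 242.4 to 334.0 FPKM in colon. Its tissue difference went from -5.33 in control to -3.28 (change 1.66 ± 0.24, limma, Benjamini-Hochberg adjusted p = 0.006), and its liver counterpart Pklr stood at 26.5 FPKM in control liver and 22.7, 22.4 and 16.5 FPKM in the model. Mat2a, the methionine adenosyltransferase of dividing and nonhepatic cells, stood at 13.7 FPKM in control liver and 66.5, 57.2 and 52.3 FPKM in the model, with colon at 59.9 to 72.5 FPKM and a model difference under 2-fold (change 1.62 ± 0.25). The change of the liver form Mat1a did not pass the test (0.11 ± 0.28), and it stood at 602.1 FPKM or more in the model liver. Fructose bisphosphatase 1 (Fbp1), of gluconeogenesis, went from 428.0 FPKM in control liver to 262.3, 273.4 and 287.6 FPKM, a change of -1.39 ± 0.29 that was not called without liver EVL. Aldoc, a brain-type aldolase also present in gut, stood at 3.72 FPKM in control liver and 1.27, 1.62 and 1.47 FPKM in the model, and at 4.50 FPKM in control colon and 7.58, 9.59 and 7.81 FPKM in the model (change -2.09 ± 0.24). By count, 4 of 37 moved toward liver and 5 toward colon (Acacb again among them), which became 2 and 2 without liver EVL, 4 and 3 without colon EVL, and 0 and 2 without colon NASH and EVH.

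**Figure D4:**
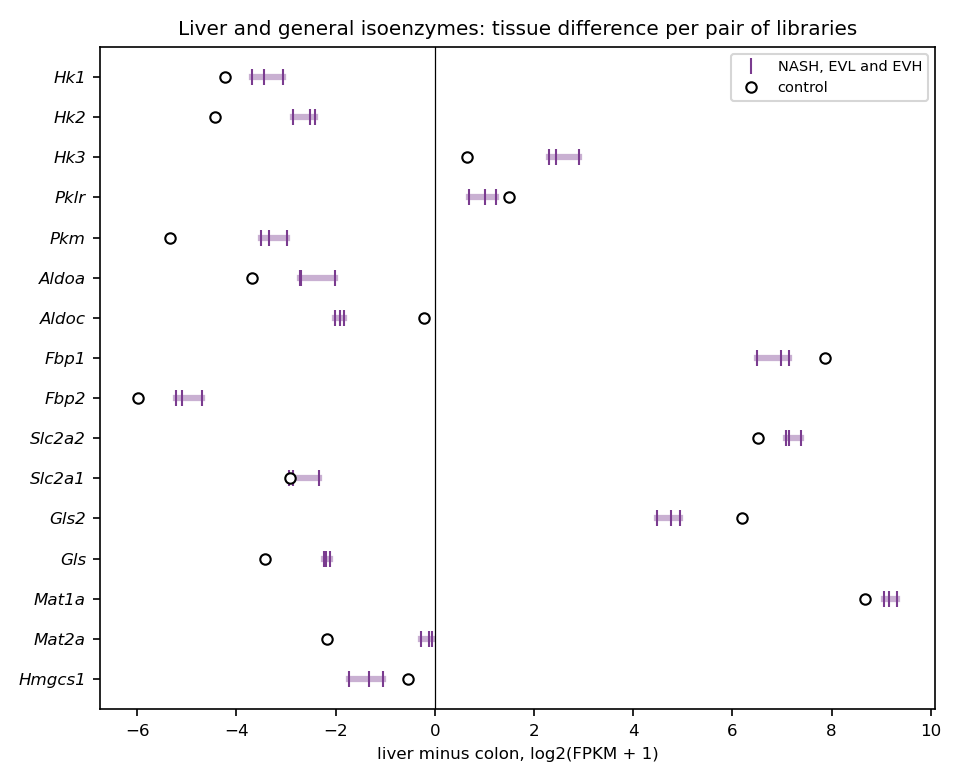
Liver minus colon difference in log2(FPKM + 1) for 16 genes of enzyme or carrier families with a liver form, in the control pair (open circle) and in the NASH, EVL and EVH pairs (ticks joined by a bar). The ticks of Hk2, Pkm and Mat2a lie to the right of control, and those of Fbp1, Gls2 and Aldoc to the left.

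Genes of the enterohepatic circulation lay on both sides: 7 of 15 were called higher in liver and 6 in colon. Cyp7a1, the rate-limiting enzyme of bile acid synthesis, stood at 9.52 FPKM in control liver and 57.8, 70.7 and 89.0 FPKM in the model and at 0.027 FPKM or less in colon (change 2.37 ± 0.31, limma, Benjamini-Hochberg adjusted p = 0.00429). Cyp7b1, of the alternative pathway, and Cyp8b1, which directs synthesis to cholic acid, moved the other way, Cyp7b1 from 113.6 to 13.1, 14.8 and 26.2 FPKM in liver and Cyp8b1 from 141.1 to 22.2, 19.6 and 35.8 FPKM. The hepatic uptake carrier Slc10a1 (NTCP) stood at 164.5 FPKM in control liver and at 33.8, 47.9 and 51.5 FPKM in the model (change -2.32 ± 0.32). The phospholipid exporter Abcb4 moved toward liver, from 38.6 FPKM in control liver to 149.3, 129.8 and 124.9 FPKM (change 1.38 ± 0.22). On the colon side, the ileal-type uptake genes were called higher in colon in the model but with a wide range: Slc10a2 (ASBT) stood at 28.1, 19.9 and 11.2 FPKM in colon NASH, EVL and EVH against 2.49 FPKM in control colon. Slc51a, a subunit of the basolateral bile acid exporter, stood at 36.9, 23.8 and 7.88 FPKM against 2.11 FPKM in control, and the ileal bile acid binding protein Fabp6 at 22.6, 21.6 and 4.02 FPKM against 2.84 FPKM. All 3 were higher in each model colon library than in control, and none of the 3 changes passed the test (-1.40 ± 0.56, -3.10 ± 0.93 and -2.25 ± 1.10). Slc51a and Fabp6 were listed at 0 in liver. Nr0b2 (SHP), a repressor induced by bile acid receptors, stood at 31.2 FPKM in control liver and 11.5, 17.8 and 10.2 FPKM in the model, and its change of -1.67 ± 0.38 was not called without liver NASH, colon NASH, colon EVL or colon EVH. The cholesterol exporter Abcg5 moved toward liver, from 20.3 to 34.6, 42.1 and 39.5 FPKM in liver and from 6.10 to 3.22, 3.36 and 3.595 FPKM in colon (change 1.201 ± 0.22), while its partner Abcg8 did not pass the test (0.12 ± 0.31).

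Counts within each pair of libraries showed how the tissue difference stood in each treatment group. At least 2-fold higher in liver were 1038 of 9659 genes in the control pair (10.7%), 1417 in NASH (14.7%), 1371 in EVL (14.2%) and 1329 in EVH (13.8%). At least 2-fold higher in colon were 4388 in control (45.4%), 2425 in NASH (25.1%), 2766 in EVL (28.6%) and 3100 in EVH (32.1%). The median gene lay at -0.90 in control and at -0.35, -0.47 and -0.52 in NASH, EVL and EVH. The order of these counts depended on the scaling. After median-of-ratios scaling the liver-high genes numbered 1785 in control, 1698 in NASH, 1793 in EVL and 1788 in EVH, so that the higher liver counts of the model pairs were not kept. The colon-high genes then numbered 2197, 1814, 1923 and 2015, still highest in control but closer together. With 1 library each these are descriptions of 4 pairs of libraries and carry no test. The range of a gene's difference over NASH, EVL and EVH had a median of 0.39 log2 units and reached 2-fold in 401 of 9540 genes (4.2%). The 8 genes with the widest range were those of the libraries that stood apart: the seminal vesicle and prostate genes Svs2, Svs4, Svs5, Svs6 and Pbsn, listed at 0 in every library but colon NASH, where Svs4 reached 6903 FPKM, and the pancreatic Prss2, Ctrb1 and Pnlip at 499.9, 530.2 and 416.9 FPKM in colon EVH and at most 0.265 FPKM in colon NASH and EVL. Rank correlations over the 9540 genes, given as a description of libraries that share the table, were 0.974 to 0.993 among the model liver libraries, 0.947 to 0.964 among the model colon libraries and 0.340 to 0.388 between model liver and model colon.

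**Figure D5:**
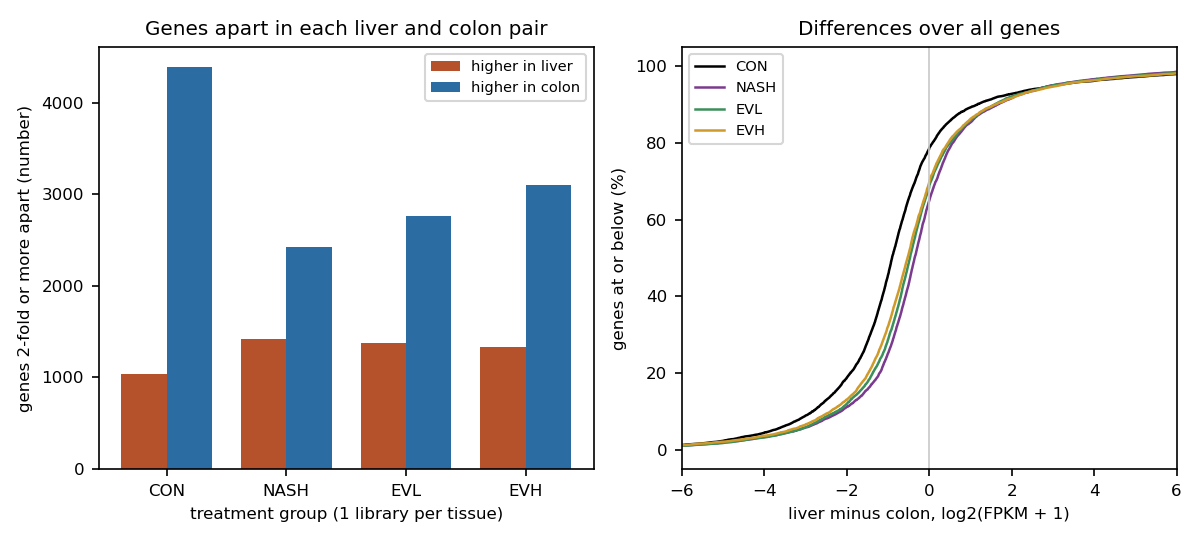
Left, number of genes at least 2-fold higher in liver or colon within each pair of libraries (control, NASH, EVL and EVH). Right, cumulative share of genes (percent) by liver minus colon difference in log2(FPKM + 1), where the control curve lies to the left of the 3 others over most of the negative range.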

How the data were processed

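RNA of 4 liver and 4 colon libraries was analysed. Per the submitters' processing notes, reads were handled with Trimmomatic 0.38, HISAT2 and StringTie on mm10, and per the labels' protocols RNA was isolated with TRIzol and a Qiagen column kit and made into stranded total RNA libraries. The settings of these tools were not stated. The deposited table gives FPKM per gene as the authors computed it, without counts. For genes under 0.3 FPKM in both libraries of a pair, 0.921% to 1.96% of the ratios fell in the fullest bin of 0.02 log2 units (28 pairs), which is too few to recover reads, so depth and its sampling error are unknown and no count model was run. Of 45777 gene identifiers, 45679 matched RefSeq symbols of GRCm38.p6.

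Here log2(FPKM + 1) of protein-coding genes at 5 FPKM or more in at least 1 library was fitted with limma 3.58.1 (R 4.3.3). The tissue difference was fitted on 6 libraries, and its change from control as an interaction on 8, centred on the median gene. Calls needed a Benjamini-Hochberg adjusted p under 0.05 over all genes tested and a 2-fold difference. The scripts were tested on simulated data. Members and gene lists were chosen with earlier results of these data known, so counts over lists describe them and are no independent support. Named genes are the 12 largest differences and changes each way, the 10 largest order reversals, the 8 widest ranges, up to 4 list members each by difference and change, and any isoenzyme or enterohepatic gene. Others are said to be chosen after their values were seen. Alternatives were other pseudocounts (0.1 and 5 FPKM), filters (none, 1 and 20 FPKM), scalings, gene classes, the treatment group as a block, a trended fit and leaving out libraries. A few genes of the lists are not reported here.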

Additional observations from a re-analysis of the deposited data

Results flagged for a closer look

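The tissue difference itself was tested to differ between control and the NASH-model groups (the interaction in limma with Benjamini-Hochberg adjustment) and did so in 1040 genes. Of these, the 10 with the largest change among genes whose tissue order was opposite, at 2-fold or more, in control are listed for a closer look. The change, in log2 units relative to the median gene, was 5.74 for D17H6S56E-5, 5.69 for Ly6d, 4.30 for Ubd, 4.0 for Gpnmb, 3.96 for Ccnd1, 3.66 for Gm3776, 3.61 for Cidec, 3.52 for Haus8, 3.35 for Gsta1 and -3.21 for Cyp4f14. Only 1 control library of each tissue stands behind each value.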

How the results depend on the processing

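Precision is set by 3 libraries of different treatments per tissue and 1 control library of each, and depth is unknown. Genes called higher in colon numbered 1672 with a pseudocount of 5 FPKM and 1247 with a filter at 20 FPKM, against 2681. Changes toward liver numbered 327, 325, 1271 and 202, and toward colon 232, 298, 212 and 165, with that pseudocount, that filter, no centring, and without colon NASH and EVH (the last chosen after seeing the data), and 223 toward colon with no filter, against 636 and 404. Order reversals numbered 66 and 6 with pseudocounts of 0.1 and 5 FPKM, 16 with the filter at 20 FPKM, 16 after median-of-ratios scaling and 11 relative to the median gene, against 29. With the treatment group as a replicate block (the labels carry no replicate numbers), 1336 and 2685 genes were called higher in liver and colon and 669 and 450 changed toward liver and colon. Leaving out each library in turn gave 1313 to 1363 genes higher in liver, 2577 to 2911 higher in colon, 424 to 656 changes toward liver, 255 to 411 toward colon and 27 to 32 reversals.

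At 2-fold within pairs, colon-high genes numbered 2538, 1573, 1742 and 1882 in CON, NASH, EVL and EVH with a pseudocount of 5 FPKM and 1802, 1168, 1366 and 1341 with the filter at 20 FPKM. After median-of-ratios scaling, CON had 1785 liver-high and 2197 colon-high genes and EVH 2015 colon-high genes.

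Of 280 tissue calls on named genes, 270 held when each library was left out and 244 under all alternatives. Of 154 called changes, 114 and 42 did, and 104 were lost without colon NASH and EVH together, where 1 colon library of the model was left. No named call reversed.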
